A study of Mus musculus with 12 samples.

Results

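The nuclear-encoded genes of the mitochondrial respiratory chain and ATP synthase were described across the cell groups of mouse small intestinal epithelium. Members were the gene symbols beginning with Nduf, Uqcr, Sdha, Sdhb, Sdhc, Sdhd, Cox4i, Cox5, Cox6, Cox7, Cox8 or Atp5 with a value above 0 in at least 100 cells of the table, and 93 of its 20090 genes met this rule. They were 37 subunits of complex I, 4 of complex II, 8 of complex III, 14 of complex IV, 17 of ATP synthase and 13 assembly factors whose names share these beginnings. The muscle isoform gene Cox6a2 was just inside the rule, with a value in 102 cells, and Cox4i2, an isoform of complex IV subunit 4, was just outside it, with a value in 41 cells.

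The respiratory chain sits in the inner mitochondrial membrane. Complexes I and II pass electrons from NADH and succinate to ubiquinone, complex III hands them to cytochrome c and complex IV to oxygen, and ATP synthase uses the proton gradient that complexes I, III and IV build. Most subunits are encoded in the nucleus and a core set in mitochondrial DNA, and assembly factors help to build complexes without being part of them. In the small intestine, stem cells at the crypt base give rise to dividing transit-amplifying cells and then to enterocytes, the absorptive cells whose function differs from duodenum to ileum.

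The data were droplet-based 3′ single-cell RNA sequencing. All mice were adults of strain Lgr5DTR-GFP, which carries a reporter and diphtheria toxin receptor at the stem cell gene Lgr5. The intestine was divided into 30 pieces tagged by MULTI-seq, a lipid-anchored barcode for cells, and epithelial cells sorted as negative for CD45 and positive for EpCAM were sequenced. The series' design text speaks of 2 small intestines. The table pools 8 diet samples whose diets the labels do not name, and the 2 total epithelium and 2 progenitor samples were not analysed here. No label ties a cell to its sample, so the table is 1 pooled sample, no difference below has a test, and values are given for 8 barcode sets, which are not known to be separate animals.

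After filtering, 27834 cells remained, with a median of 2218 detected genes. Epcam was at 2182 ppm and the leukocyte gene Ptprc (CD45) at 0.974 ppm, where ppm is a gene's summed value over the cells of a group relative to that of all genes together, times 1000000. Marker genes named 6658 progenitor-like cells, of which 4102 were stem-like and 2556 transit-amplifying-like, 6525 enterocyte-like, 505 enteroendocrine-like and 334 tuft-like cells. The other 13812 cells (49.6%) fell in clusters that met no epithelial naming rule. Of the enteroendocrine-like cells 410, and of the tuft-like cells 309, came from barcode set 7, so these 2 groups rest largely on that set. Enterocyte-like cells were divided into 3 equal parts within each set by a regional score, which is the mean of 8 genes of the distal intestine minus the mean of 8 genes of the proximal intestine. No member was among those 16 genes or used to cluster the cells. The cells were not placed by their segment barcodes, so proximal and distal describe this score, and for 16.6% of these cells the score was no more than 0.1 SD from a dividing value.

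To show where the members sit and what their start sites hold, promoters from RefSeq (build GRCm38.p6) were matched by symbol for 79 of 93 members, over the 250 bases before the start and 50 after it. The NRF1 motif GCGCANGCG, named for a transcription factor of mitochondrial genes, was in the promoters of 24 members (30.4%) and of 7.03% of all 27025 genes, with both strands read. The ETS-family motif CCGGAAG was in 22 members (27.8%) and 9.93% of genes, and the YY1 motif AAGATGGCG in 8 members (10.1%) and 1.64% of genes. At least 1 of these 3 motifs was in 55.7% of members and 16.5% of genes, and matches of different motifs overlapped in 0 members. The letters TATAAA were in 7 members (8.86%) and 15.7% of genes. The ERR motif TCAAGGTCA was in 2 members, Atp5g3 and Sdhd, and in 0.466% of genes, and the HNF4 motif CAAAGTCCA in 0 members and 0.555% of genes. The median GC content of the 250 bases before the start was 57.6% for matched members and 52.4% for all promoters. The part of GC content in these shares was not tested. A match is a description of letters and not a bound site.

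Printed here are the 250 bases before the start for the 4 members on which the results turn. Sdhd encodes a membrane anchor of complex II (chr9:50603850-50604099, minus strand), Cox7a1 the heart and muscle isoform of complex IV subunit 7a (chr7:30183921-30184170, plus strand), Cox7a2 its ubiquitous isoform (chr9:79759854-79760103, minus strand) and Cox6b2 an isoform of subunit 6b known from testis (chr7:4753095-4753344, minus strand). Capitals mark the NRF1 and ETS matches.
Sdhd: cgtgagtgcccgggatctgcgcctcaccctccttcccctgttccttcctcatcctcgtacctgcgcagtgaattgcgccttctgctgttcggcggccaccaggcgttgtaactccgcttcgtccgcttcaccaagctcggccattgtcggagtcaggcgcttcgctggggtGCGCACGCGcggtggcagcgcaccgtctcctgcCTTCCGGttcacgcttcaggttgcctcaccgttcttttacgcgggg
Cox7a1: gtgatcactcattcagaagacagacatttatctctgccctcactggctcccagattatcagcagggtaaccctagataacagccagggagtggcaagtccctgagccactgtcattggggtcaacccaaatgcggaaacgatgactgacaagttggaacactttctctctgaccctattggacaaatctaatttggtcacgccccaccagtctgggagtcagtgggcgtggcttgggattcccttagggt
Cox7a2: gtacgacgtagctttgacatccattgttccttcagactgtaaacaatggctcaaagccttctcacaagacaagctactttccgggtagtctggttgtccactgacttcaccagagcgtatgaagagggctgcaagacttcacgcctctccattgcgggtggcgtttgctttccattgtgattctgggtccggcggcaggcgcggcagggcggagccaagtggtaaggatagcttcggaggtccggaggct
Cox6b2: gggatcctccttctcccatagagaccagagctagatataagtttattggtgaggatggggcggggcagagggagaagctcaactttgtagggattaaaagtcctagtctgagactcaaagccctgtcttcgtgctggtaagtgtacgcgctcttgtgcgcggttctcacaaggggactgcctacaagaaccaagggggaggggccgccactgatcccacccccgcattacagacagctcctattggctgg
The Sdhd stretch held an NRF1 and an ETS match and 27 CG pairs in 250 bases. The stretch before Cox7a1 held none of the motifs searched and 4 CG pairs, that before Cox7a2 none and 14, and that before Cox6b2 none and 8.

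Summed over the members, transcripts of the respiratory chain and ATP synthase took 3.47% of all values in the 27834 cells. The share was 2.37% in stem-like cells, 3.49% in transit-amplifying-like cells, 3.41% in enterocyte-like cells, 3.73% in enteroendocrine-like cells and 3.78% in tuft-like cells. The widest contrast lay among enterocyte-like cells, with 5.04% in the proximal part, 2.50% in the middle part and 2.19% in the distal part. Over the 8 barcode sets, the proximal part ran from 44106 to 58638 ppm (median 52882) and the distal part from 18282 to 26329 ppm (median 22466), so every set's proximal value lay above every distal value. Stem-like cells ran from 20692 to 27375 ppm (median 23456) and transit-amplifying-like cells from 31341 to 37338 ppm (median 34629), also without overlap. The whole enterocyte-like group (30018 to 42868 ppm) and the whole progenitor-like group (23490 to 30938 ppm) did overlap.

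**Figure D1:**
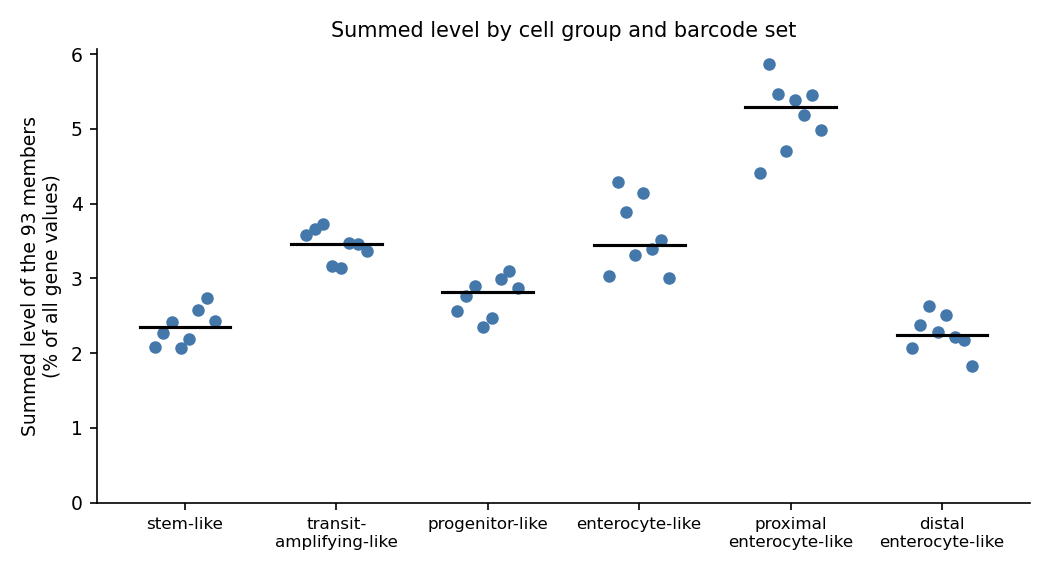
Summed level of the 93 members as a percentage of all gene values (vertical axis) in 6 cell groups, with 1 point per barcode set and a line at the median of the 8 sets. Proximal enterocyte-like cells (5.04% over all cells) stand above all other groups shown, and distal enterocyte-like cells (2.19%) lie near stem-like cells (2.37%).

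By level, 4 members stood at 1000 ppm or more over all cells, 72 at 100 to 1000 ppm, 16 at 10 to 100 ppm and 1, Cox6a2, under 10 ppm. The 13 assembly factors had a median of 24.8 ppm and the 17 ATP synthase genes a median of 575 ppm. These are 3′ tags with no length term, and levels of different genes are not compared further. Every difference below is the log2 difference of a gene's ppm between 2 groups after adding 1 ppm, which understates changes of low genes. A member was tested where its mean over the groups was at least 10 ppm. It passed the direction rule where it moved the same way in every barcode set with at least 30 cells in both groups, and the size rule where the difference was also at least 1.

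Nearly the whole chain was lower in distal than in proximal enterocyte-like cells. Of 90 members tested, 88 were lower by the direction rule, against 28.8% of all 7848 genes tested, and 1, Cox6b2, was higher, against 23.7%. The median member difference was -1.29 (set medians -1.46 to -1.12), and the median over all genes was -0.082. By the size rule 72 members were lower, against 15.2% of genes, and 1 was higher, against 8.51%. The lower members included all 37 of complex I (median -1.38), all 4 of complex II (-1.36), all 8 of complex III (-1.20), 12 of 13 tested in complex IV (-1.29), all 17 of ATP synthase (-1.14) and 10 of 11 tested assembly factors (-1.53). Of the 90, 7 assembly factors reached the 10 ppm minimum only through their proximal level and Cox6b2 only through its distal level, so these 8 had to differ. Among the other 82, 81 were lower.

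Cox7a1 showed the steepest fall among structural subunits. Its level was 404 to 612 ppm over the sets in the proximal part (median 492) and 70.2 to 123 ppm in the distal part (median 87.4), a difference of -2.38 with no overlap of the sets. Sdhd followed, from 227 to 337 ppm (median 256) in the proximal part to 32.8 to 77.1 ppm (median 65.8) in the distal part, a difference of -2.14. The sets of Sdhd did not overlap either. Ndufb10, an accessory subunit of complex I, ran from 379 to 537 ppm (median 479) in the proximal part and from 104 to 151 ppm (median 129) in the distal part, a difference of -1.83. All 3 genes thus had every distal set below every proximal set. Values of 4 assembly factors that reached the minimum only through the proximal part are given as descriptions. Sdhaf3 and Sdhaf1, assembly factors of complex II, differed by -2.46 and -2.004, and Ndufaf4 and Ndufaf3, assembly factors of complex I, by -2.13 and -1.80. These 4 genes were at 4.45 to 8.71 ppm in the distal part. The accessory complex I subunits Ndufa8 and Ndufb6 differed by -1.94 and -1.86, and the core subunit Ndufs3 by -1.76.

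The catalytic and structural core went in the same direction. In complex I the core subunits Ndufs1 and Ndufv1, which carry iron-sulfur clusters and the flavin, differed by -0.98 and -1.31, and the accessory subunit Ndufb8 by -1.49. In complex II the flavoprotein Sdha and the iron-sulfur subunit Sdhb differed by -1.14 and -1.31. In complex III the core protein Uqcrc1 and the Rieske iron-sulfur protein Uqcrfs1 differed by -1.29 and -1.52. Complex IV subunits Cox4i1, Cox5a, Cox5b, Cox6a1, Cox7a2, Cox8a and Ndufa4, a subunit first assigned to complex I, differed by -0.93, -1.56, -1.27, -1.30, -1.47, -1.29 and -1.47. All 7 passed the direction rule. In ATP synthase the head subunits Atp5a1 and Atp5b differed by -1.09 and -0.59, the c-ring gene Atp5g1 by -1.63 and the stalk gene Atp5o by -1.16. The head and central stalk genes were the shallowest role with 5 or more members (median -0.83, 2 of 5 past the size rule), and Atp5d of the central stalk differed by -0.59. Atp5b went from 1162 to 1384 ppm (median 1278) in the proximal part to 707 to 1040 ppm (median 906) in the distal part, still without overlap. The smallest difference belonged to the complex II assembly factor Sdhaf2 (-0.47), which was lower in 6 of 8 sets, followed by Atp5d and Atp5b and then by Cox7a2l, a supercomplex assembly factor, and Ndufs4, an accessory complex I subunit (-0.66 each).

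Cox6b2 was the 1 tested member with a higher value in the distal part, a call that did not hold under every alternative. It was at 4.77 ppm in the proximal part (sets 0.785 to 17.8, median 4.42) and 16.9 ppm in the distal part (sets 9.51 to 23.4, median 18.4), a difference of 1.63. It was higher in the distal part within each of 8 sets, although the ranges of the parts overlapped. Its difference was above 0 under all 30 alternatives, but it passed the direction rule in 19, was under the minimum for testing in 6 and was tested without passing in 5. The difference was 0.49, with 4 of 6 sets higher, among cells matched on detected genes, 0.38, with 4 of 8 sets higher, where only distal genes made the score, and 0.042, with 3 of 5 sets higher, within cluster 6. Cox6a2 was at 4.91 ppm in the proximal part and 0.0927 ppm in the distal part, under the level needed for testing.

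**Figure D2:**
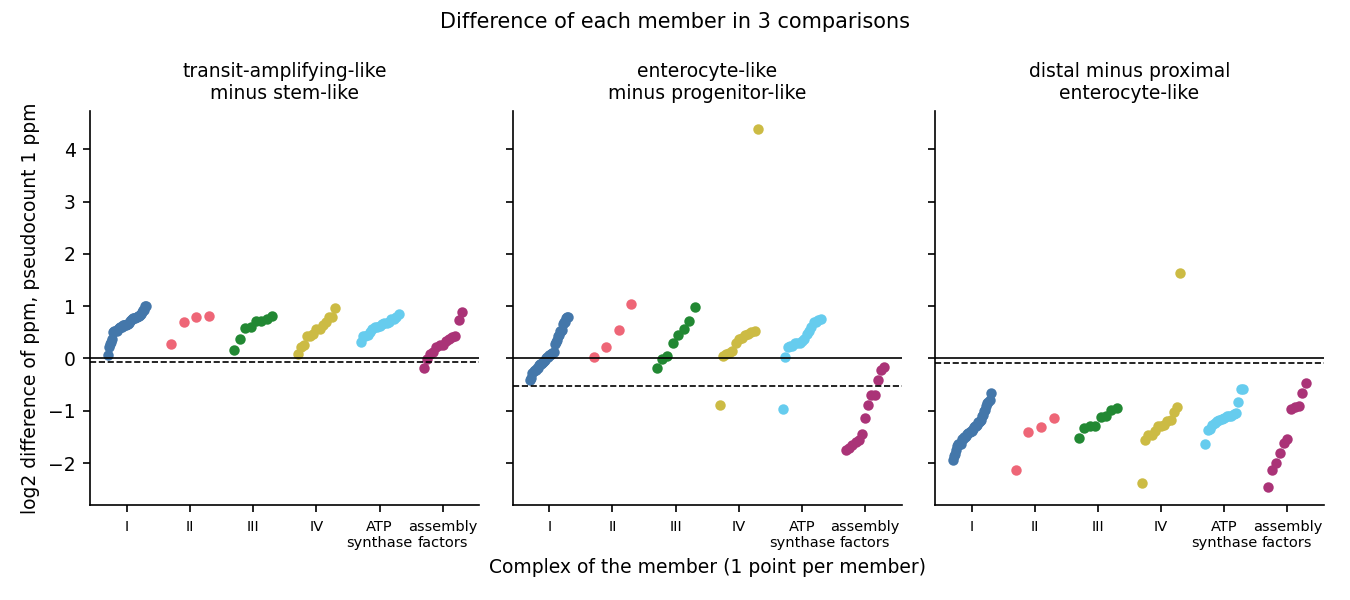
Log2 difference of ppm for each tested member (1 point each), by complex, in 3 comparisons; the solid line is 0 and the dashed line the median of all genes tested. In the right panel 89 of 90 points lie below 0, and the single point above is Cox6b2 (1.63). In the middle panel the 13 assembly factors all lie below 0 and the highest point is Cox7a1 (4.38).

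Over the pooled cells the decline was front-loaded along the score. In 5 equal parts from proximal to distal, the summed level was 55945, 36763, 24540, 22336 and 21565 ppm. Most of the pooled fall thus lay before the third part, but its shape varied between sets. The second part ran from 27304 to 56818 ppm over the sets and the third from 19306 to 37268 ppm. Median detected genes in the 5 parts were 2874, 2125, 1709, 1620 and 1728, and their part in this shape was not tested. With 3 parts, and by level alone with no minimum, 87 of 93 members had lower values at both steps, 5 (Sdhaf4, Ndufaf1, Ndufaf6, Ndufs4 and Ndufaf7) were lowest in the middle, and Cox6b2 was highest there. From the proximal to the middle part the set medians of the members ran from -1.46 to -0.49. From the middle to the distal part they ran from -0.72 to -0.043, with a pooled median of -0.21. At this second step 8 of 84 tested members were lower by the direction rule, against 2.74% of all genes, so most did not pass it. Transcripts of the 13 mitochondrially encoded subunits of the same complexes followed a flatter course, at 96920, 102224, 87910, 72896 and 67736 ppm. Of those 13 genes, 8 were lower in the distal part by the direction rule, against 28.8% of all genes, and 0 by the size rule (median -0.46).

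**Figure D3:**
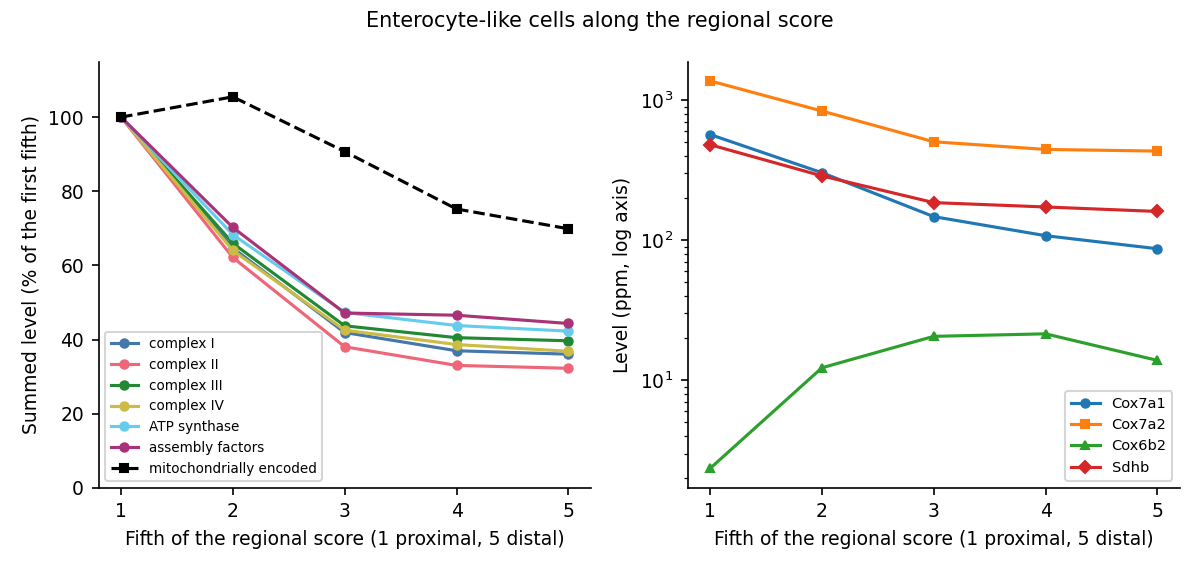
Left, summed level of each complex as a percentage of its level in the most proximal of 5 equal parts of the regional score; right, levels in ppm (log axis) of Cox7a1, Cox7a2, Cox6b2 and Sdhb in the same 5 parts. Values are pooled over the sets. All 6 nuclear-encoded groups drop steeply to the third part. The mitochondrially encoded sum (dashed) falls from 96920 to 67736 ppm over the 5 parts, and Cox6b2 rises from 2.35 to 21.5 ppm at the fourth part.

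The score parts differed in cluster makeup and in depth, and the size of the difference moved with both. Cluster 7, led by G0s2 and Leap2, held 76.3% of proximal cells, cluster 6, led by Ada, Nt5e and Slc28a2, held 53.0% of middle cells, and cluster 11, led by the bile acid carrier gene Slc10a2, held 46.1% of distal cells. Cluster 6 also held 26.1% of distal cells. With every other marker list as a rival in naming, clusters 6 and 11 had no name. The list with the highest median log2 fold in cluster 6 was that of red blood cells (1.53). In cluster 11 it was the enterocyte list, at 0.71. Within cluster 6 alone (566 distal and 271 proximal cells) the median member difference was -0.067, with 11 of 83 members lower by the direction rule, against 4.83% of all genes, and 1 higher, against 7.78%, in 5 sets with at least 10 cells in both parts. Within cluster 9, led by the lactate carrier gene Slc5a12 (590 and 231 cells), it was -0.60, with 61 of 87 lower, against 12.7% of all genes. Cluster 7 held only 15 distal cells and cluster 11 only 13 proximal cells, and their medians were -0.67 and -0.34. Within each cluster the difference was thus smaller than over all enterocyte-like cells, and regional position and the cell states that the clusters separate cannot be told apart here. Values of marker genes of other types were as follows. The 10 goblet genes summed to 2455 ppm in proximal cells (sets 819 to 5016) and 6184 ppm in distal cells (2237 to 13025), and these ranges overlapped. The 10 Paneth genes summed to 1875 ppm in proximal cells (1309 to 2734) and 5893 ppm in distal cells (3093 to 12302), and these ranges did not overlap. All 20 were above 0 in both parts, and their part in the result was not tested. Proximal cells had a median of 2722 detected genes and distal cells 1686. Among 911 cells per part matched on detected genes, the median was -1.03 and 80 of 88 tested members were lower, against 14.6% of all genes.

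Transit-amplifying-like cells had higher levels of most members than stem-like cells. Of 92 members tested, 81 were higher by the direction rule, against 20.2% of 9590 genes, and 0 were lower, against 22.7%. The median difference was 0.61 (set medians 0.38 to 0.87) beside -0.060 over all genes. It was 0.65 in complex I, 0.74 in complex II, 0.66 in complex III, 0.56 in complex IV, 0.62 in ATP synthase and 0.26 among assembly factors. Ndufb6 was the only member past the size rule (3.02% of genes were higher by it), with 72.9 to 101 ppm in stem-like cells (median 84.5) and 80.3 to 199 ppm in transit-amplifying-like cells (median 165), a difference of 1.001. Its ranges overlapped, although each of 8 sets was higher in transit-amplifying-like cells. Ndufa11, a complex I accessory subunit, differed by 0.996, Cox7a1, which was under 10 ppm in stem-like cells, by 0.96 and the accessory subunit Ndufa5 by 0.93. Cox7a1 reached the minimum only through transit-amplifying-like cells, so it had to be higher. Among the other 91 members the median was 0.606, and 0 were lower by the direction rule. At the other end, Sdhaf3 differed by -0.18, Ndufaf5, a complex I assembly factor, by -0.0054, Ndufs4 by 0.060 and Sdhaf2 by 0.084, and these 4 did not pass the direction rule.

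The core members rose together in this comparison. The c-ring gene Atp5g1 went from 432 to 601 ppm (median 481) in stem-like cells to 828 to 972 ppm (median 899) in transit-amplifying-like cells, a difference of 0.86 with no overlap of the sets. Sdhb differed by 0.80, Cox5a by 0.79, Uqcrc1 by 0.71 and Cox7a2 by 0.70. Smaller differences that still passed the direction rule belonged to Cox4i1 (0.26), Sdha (0.28), Atp5b (0.32) and Ndufs1 (0.21). The mitochondrially encoded genes moved in the opposite direction, with 0 of 13 above 0 and 11 lower by the direction rule, against 22.7% of all genes (median -0.54).

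One stem-like cluster carried part of that contrast. Cluster 10, led by Aspn, Ogn and Ecm2, had 1358 of the 4102 stem-like cells, the lowest member sum of any cluster (17485 ppm) and the highest mitochondrially encoded sum (139306 ppm). Without it, 75 of 92 members were higher, against 18% of genes, with a median of 0.43. The mitochondrially encoded median was then -0.032, with 1 gene higher and 5 lower. The opposite direction of the mitochondrially encoded genes thus rested largely on cluster 10. The 10 Paneth genes summed to 4414 ppm in stem-like cells (2057 to 6936) and 1501 ppm in transit-amplifying-like cells (487 to 2407), and their part in the result was not tested.

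Enterocyte-like cells differed from progenitor-like cells by member role more than as a whole. Of 92 members, 44 were higher by the direction rule, against 26.6% of 9376 genes, and 12 were lower, against 53.1%. Most genes of the table were lower in enterocyte-like cells, with a median over all genes of -0.54, while the member median was 0.13 (set medians -0.024 to 0.61). Counted against that all-gene median, 80 of 92 members lay above it. The sign of the member median depended on the scale: it was -0.052 with ribosomal protein genes left out of the total and -0.0079 with values not rescaled, and 15 and 14 members changed sign. Ribosomal protein transcripts took 5.65% of values in enterocyte-like and 17.1% in progenitor-like cells. The 10 goblet genes summed to 4696 ppm in enterocyte-like cells (sets 1974 to 10003) and 1450 ppm in progenitor-like cells (669 to 5375). The part of the goblet genes in the result was not tested.

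The 13 assembly factors stood at one end of this comparison and a few subunits at the other. All 13 assembly factors were below 0 (median -1.15), 10 of them by the direction rule and 7 by the size rule, which 37.1% of all genes passed as lower. Those 7 were Ndufaf6 (-1.75), Ndufaf5 (-1.71), Ndufaf2 (-1.66), Ndufaf7 (-1.59), Sdhaf1 (-1.55), Ndufaf4 (-1.44) and Sdhaf3 (-1.15). Ndufaf1, Ndufaf5 and Ndufaf7 reached the minimum only through progenitor-like cells, so these 3 had to be lower. Without them, 9 of 89 members were lower by the direction rule, against 53.1% of all genes, and the member median was 0.21. Ndufaf6 was at 28.1 to 43.8 ppm in progenitor-like cells (median 38.7) and 8.40 to 20.2 ppm in enterocyte-like cells (median 10.6). Its sets did not overlap. Of the subunits, 44 were higher and 2 lower by the direction rule, the lower ones being Cox6b2 (-0.90) and the c-ring gene Atp5g2 (-0.97).

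Cox7a1 was the member that most separated the groups. Its level was 7.57 to 30.6 ppm over the sets in progenitor-like cells (median 12.1) and 206 to 367 ppm in enterocyte-like cells (median 285), a difference of 4.38. Every enterocyte-like set lay above every progenitor-like set. Sdhb was the only other member higher by the size rule, which 15.9% of genes passed as higher. It was at 95.7 to 145 ppm (median 135) in progenitor-like and 236 to 350 ppm (median 269) in enterocyte-like cells, a difference of 1.03. Uqcrfs1 (0.98), Ndufb7 (0.80) and Ndufv3 (0.79), accessory subunits of complex I in the last 2 cases, came next. Among core members, Uqcrc1 differed by 0.71, Atp5o by 0.70, Atp5b by 0.60, Cox7a2 by 0.50, Cox5a and Cox6a1 by 0.46, Cox4i1 by 0.38, Cox5b by 0.30, Atp5a1 by 0.29 and Ndufv1 by 0.28, all by the direction rule. Others near 0 that did not pass it included Ndufs1 (-0.24), Atp5g1 (0.025), Sdha (0.035), Cox8a (0.043), Ndufa4 (0.090) and Ndufb8 (0.095).

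The Cox7a pair shows how the isoforms differed across groups. Cox7a1 was at 8.44 ppm in stem-like, 17.4 in transit-amplifying-like, 27.1 in tuft-like, 47.0 in enteroendocrine-like, 93.9 in distal and 492 ppm in proximal enterocyte-like cells. Stem-like sets (5.33 to 27.4 ppm) and transit-amplifying-like sets (11.7 to 40.1 ppm) overlapped in that order, while the distal and proximal sets did not overlap with each other or with those 2 groups. In set 7, which gave most tuft-like and enteroendocrine-like cells, Cox7a1 was nearly equal in these groups, at 26.2 and 26.5 ppm. The gap between their pooled levels thus came from cells of other sets. Cox7a2 was at 435 ppm in stem-like, 709 in transit-amplifying-like, 439 in distal and 1216 ppm in proximal enterocyte-like cells. Neither gene had a near-identical 3′ end elsewhere in the annotation or an antisense gene of the table over its exons.

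Enteroendocrine-like and tuft-like cells were compared with the same progenitor-like cells as the enterocyte-like cells. Set 7 was the only set with enough cells, so the direction rule rests on 1 set. The member median was 0.32 in both comparisons, beside -0.35 and -0.34 over all genes, and 0.18 and 0.25 in set 7 alone. In enteroendocrine-like cells 63 of 92 members were higher, against 19.3% of genes, and 21 lower, against 71.6%. In tuft-like cells 67 were higher, against 18.5%, and 15 lower, against 71.8%. Over the pooled cells Cox7a1 was highest in both (1.89 and 1.12), followed by Atp5md, a small membrane subunit of ATP synthase (0.76 and 0.66). In set 7 alone Cox7a1 was at 26.5 ppm in enteroendocrine-like, 26.2 in tuft-like and 10.3 ppm in progenitor-like cells. The median of assembly factors was -0.63 in enteroendocrine-like cells, and in tuft-like cells it was -0.31, close to that of all genes (-0.34). The lowest members were Ndufaf7 (-1.17) and Cox6b2 (-1.03) in enteroendocrine-like and Sdhaf1 (-0.56) in tuft-like cells. Without set 7 the tuft-like median was 0.088, and with values not rescaled the medians were 0.035 and 0.012.

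Across clusters, including unnamed ones, the members mostly varied together. The summed level ran from 17485 ppm in cluster 10 and 19911 ppm in cluster 6 to 54114 ppm in cluster 7 and 58983 ppm in cluster 12. Cluster 12 had 1213 cells from 8 sets, was led by Ros1, Meis2, Nkx6-3 and Reg1 and had no name under the marker rule. Cluster 13 (1037 cells, 50948 ppm) had among its leading genes Ccdc152 and the goblet cell genes Fcgbp and Clca1, and 84.8% of its cells came from set 4. Cluster 5 (2011 cells), also unnamed, was led by Car1 and had Fabp6, a gene of the enterocyte list, among its leading genes. Its sum was 44956 ppm (sets 41123 to 47088), above every set of the distal part (18282 to 26329). Its cells were not placed by the score, so the distal values describe named enterocyte-like cells only. Over 17 clusters of at least 100 cells, a member's level and the sum of the other members had a median Pearson r of 0.94, and 61 of 93 members had r of at least 0.9. The lowest were Cox6b2 (r -0.32) and the assembly factors Ndufaf2 (0.25), Ndufaf7 (0.26), Ndufaf6 (0.31) and Ndufaf5 (0.35). The member sum and the mitochondrially encoded sum had r of -0.23. These values describe clusters that share libraries and a total, and have no test.

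**Figure D4:**
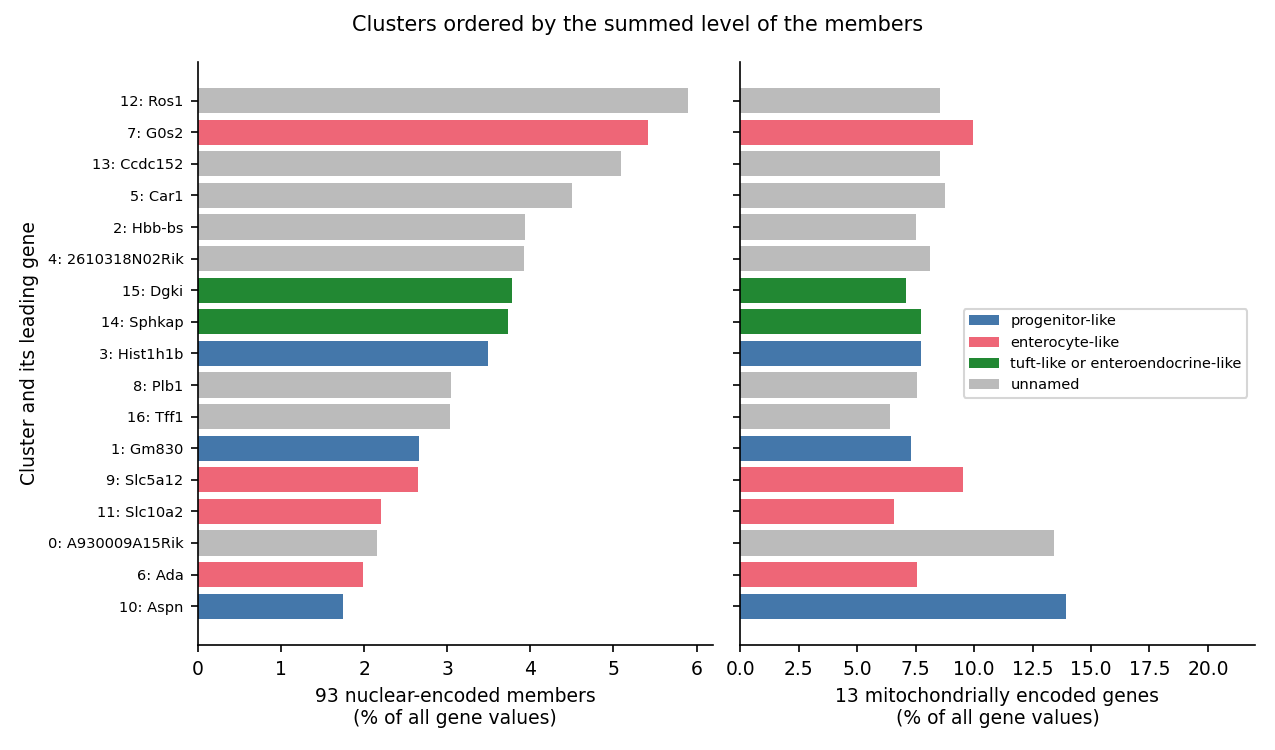
Clusters with at least 100 cells, ordered by the summed level of the 93 members (left, percentage of all gene values), with the 13 mitochondrially encoded genes in the same clusters (right, same unit); colours give the name each cluster met. Cluster 12 is highest (58983 ppm) and cluster 10 lowest (17485 ppm) on the left, and clusters 10 and 0 are highest on the right.

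Cox6b2 followed its own pattern over these clusters. It was at 33.9 ppm in cluster 6, 30.4 ppm in cluster 3, which is the transit-amplifying-like cluster, and 28.2 ppm in the stem-like cluster 1, and at 2.44 ppm in cluster 7. Cox7a1 was at 538 ppm in cluster 7, 281 ppm in cluster 12, 262 ppm in cluster 13 and 224 ppm in cluster 5, and at 7.33 to 17.4 ppm in the 3 progenitor-like clusters.

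Other mitochondrial lists shared the regional difference to varying degrees, where 28.8% of all genes were lower and 23.7% higher. In distal against proximal enterocyte-like cells all 3 genes of the cytochrome c list were lower by the direction rule. Cyc1, the cytochrome c1 subunit of complex III, was at -1.43 and Cycs, cytochrome c, at -0.88. The other gene was Hccs, which encodes an enzyme that attaches heme to cytochrome c. Of 34 mitochondrial ribosomal protein genes 33 were lower and 0 higher (median -1.32), from Mrpl4 (-2.14) to Mrps28 (-0.0051). Of 32 tested assembly factors outside the members 27 were lower and 0 higher (median -0.997), led by Coa4 (-1.93) and Coa7 (-1.80), both of complex IV assembly. Coa4 was at 7.97 ppm in the distal part, so it reached the 10 ppm minimum only through its proximal level and had to differ. Ecsit, Coa6 and Tmem70 were also under 10 ppm in the distal part, and the count was not repeated without such genes. Of 18 genes of the citrate cycle and the pyruvate dehydrogenase complex 13 were lower and 1 higher (median -1.18). Dlat of the pyruvate dehydrogenase complex (-2.61) and the fumarase gene Fh1 (-2.09) were lowest, and citrate synthase, Cs, was the higher one (0.46). The list for the inner membrane and cristae also held the outer membrane channel genes Vdac1, Vdac2 and Vdac3. Of its 17 tested genes 14 were lower and 0 higher (median -1.003). The prohibitin gene Phb, under 10 ppm in the distal part, was at -2.12 and the cristae gene Apoo at -2.03.

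Between transit-amplifying-like and stem-like cells 31 of 34 mitochondrial ribosomal protein genes were higher, against 20.2% of all genes (median 0.70), among them Mrpl51 (1.39) and Mrps12 (1.01). In enterocyte-like against progenitor-like cells 21 of those 34 were lower, where 53.1% of all genes were, and 1 was higher, against 26.6% (median -0.81). By contrast, all 3 genes of the cytochrome c list were higher, Cycs by 1.62. Of 37 other assembly factors 19 were lower, which is near that background, and 4 higher (median -0.67). Nubpl, of complex I assembly, was lowest (-2.26) and Cox17, a copper chaperone of complex IV, highest (0.81).

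Members are spread over the genome and some cannot be fully separated from similar genes. Of 93 members, 91 had 1 position in the GENCODE mouse annotation, on 19 chromosomes. The gene bodies of Cox7a1 (7, 30184144 to 30186078, plus strand) and Cox6b2 (7, 4751792 to 4753094, minus strand) are on the same chromosome, and those of Sdhd (9, 50596357 to 50603812) and Cox7a2 (9, 79755361 to 79759878) on another, both on the minus strand. For 26 members the last 300 transcript bases had a copy in another gene of at least 95% identity over 90 bases, and for 3 of these (Cox5b, Atp5l and Ndufaf7) such a gene was in the table, so their values are uncertain. The exons of 28 members overlapped an antisense gene of the table. Median distal minus proximal differences were -1.29 for 23 members with the NRF1 motif and -1.31 for 54 without it, and -1.29 for 22 with and -1.31 for 55 without the ETS motif.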

How the data were processed

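The authors deposited 1 pooled table of 20090 genes by 27881 cells, whose values are score values made by a step that was not stated in the sources used here. They are whole numbers, but the value 2 outnumbered the value 1 in 25.3% of cells, and cell totals ran only from 2764 to 9739. The submitters' processing notes name Cell Ranger and build mm10. No count model was run, depth is unknown, and no interval is given. Cells end in 1 of 8 numbers that do not match the sample titles. Between these sets, 80 pairs of cells shared a barcode (27802 distinct).

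Removed were 2 cells with fewer than 500 detected genes or over 25% mitochondrially encoded values. Scrublet marked 45 further cells (0.161%), below the 0.5% of a working caller, so doublets may remain. Values per 10000 were log-transformed, 2000 variable genes (members left out) scaled, and 30 principal components clustered with leidenalg 0.10.2 in scanpy 1.11.5 (15 neighbours, resolution 1, 18 clusters, 9 unnamed). A cluster took a list's name with at least 3 markers 2-fold higher at 10 ppm or more and a margin of 0.5 in the median log2 fold over rival lists. No goblet-like cluster was named, so that planned comparison was not made. Goblet-like cells were named at resolution 0.5 (1028), at resolution 2 (2041) and without gene scaling (1062).

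The members, gene lists and rules were chosen with earlier results of these data known. A first clustering without gene scaling named no tuft-like cluster, and scaling was then added, with which no goblet-like cluster was named at resolution 1. Rivals were afterwards limited to lists that themselves met the marker minimum, and lists of cells other than epithelium gave no name. These 3 changes came after seeing the clusters and before any member value. Genes named in the text are those past the size rule (the 10 largest where more passed), the 4 highest and 4 lowest of each comparison, fixed members of each role, the tissue-restricted isoforms and the 2 highest and 2 lowest genes of other lists. Some are given by count, and some are not reported here. The letters of the NRF1 motif were also shortened after earlier searches. The comparison was run on simulated Poisson counts that had the same proportions in every set. The values here are not such counts, so that run checks the calculation only. Tools were matplotlib 3.10.9, pandas 2.3.3, scipy 1.17.1, numpy 2.4.6, scikit-learn 1.9.0 and Python 3.11.15.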

Additional observations from a re-analysis of the deposited data

Results flagged for a closer look

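Of 49 values over the 8 barcode sets tested with Dixon's criterion for a sample far from the others, 2 stood apart, where chance flags about 1 in 20. That is no more than this rate gives. Both are the summed level of the 4 complex II genes in barcode set 4. The 2 values share the stem-like cells of that set, so they are not independent. In progenitor-like cells it was 430 ppm in set 4 and 530 to 592 ppm in the other sets. In stem-like cells it was 381 ppm in set 4 and 434 to 478 ppm in the others. Set 4 held 134 progenitor-like cells, of which 102 were stem-like, the fewest of any set, and the part of that number in the lower level was not tested.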

How the results depend on the processing

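Of the alternatives to the main values of the comparisons, 205 stayed within the spread of the sets or 1.5 times of the count, 36 moved beyond it and 2 reversed the sign. For single members 143 stayed and 17 moved. The enterocyte-like minus progenitor-like median (0.13) reversed to -0.052 without ribosomal protein genes and to -0.0079 without rescaling. It was 0.67 centred on all genes, 0.47 matched on detected genes and 0.52 with every other list as a rival in naming (3286 enterocyte-like cells, those of clusters 7 and 9). The 44 higher members (26.6% of all genes were higher) became 27 without ribosomal protein genes (22.6%), 74 centred (38.9%) and 69 with every list as a rival (27.2%), and the 12 lower became 7 at resolution 0.5. The distal minus proximal median (-1.29) was -1.73 without rescaling, -1.03 matched on detected genes, -1.14 with every list as a rival, -1.03 with distal scoring genes alone, -1.47 between the ends of 5 parts, and -0.067, -0.67, -0.60 and -0.34 within clusters 6, 7, 9 and 11. The 88 lower members became 11 of 83 tested within cluster 6, all of them among the 88, and the count was 0 by construction within clusters 7 and 11, where no set had 10 cells in both parts. The tuft-like median (0.32) was 0.66 centred, 0.012 without rescaling, 0.17 with the stricter cell filter, 0.038 without sets 4 and 7 and 0.18 without cluster 10. The enteroendocrine-like median (0.32) was 0.67 centred, 0.035 without rescaling, 0.18 with the stricter filter, 0.18 without cluster 10 and 0.18 in set 7 alone. The transit-amplifying-like minus stem-like median (0.61) was 0.44 with the stricter filter and 0.43 without cluster 10. The progenitor-like sum (28099 ppm) was 30790 without mitochondrially encoded genes, 33900 without ribosomal protein genes and 31101 with the stricter filter, and the enterocyte-like sum (34123 ppm) was 43862 with every list as a rival. The cause of these moves was not tested beyond the change of scale, cells or genes each makes.

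Leaving out 1 barcode set at a time gave medians of 0.074 to 0.18 (enterocyte-like), -1.32 to -1.23 (distal minus proximal), 0.088 to 0.33 (tuft-like), 0.28 to 0.35 (enteroendocrine-like) and 0.56 to 0.67 (transit-amplifying-like). Clustering without gene scaling, the within-cluster and without-cluster alternatives, set 7 alone and the naming alternative were chosen after seeing the data. No paired analysis was possible because the table's cells carry no sample number. The goblet-like comparison was not computed, and tuft-like and enteroendocrine-like cells were not named at resolution 0.5.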

Other observations

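Regulators of mitochondrial biogenesis did not follow the members as a group. Between distal and proximal enterocyte-like cells, 2 of 10 tested were lower and 2 higher by the direction rule (median -0.26), near the 28.8% and 23.7% of all genes. The coactivator gene Ppargc1b went from 94.0 to 23.7 ppm (-1.94), while the transcription factor genes Nrf1 (0.87) and Yy1 (0.46) were higher in the distal part. In enterocyte-like against progenitor-like cells 11 of 14 were lower and 2 higher (median -1.10), where 53.1% of all genes were lower and 26.6% higher. Myc (-3.57) and Pprc1 (-3.20) were lowest, and the higher ones were Ppargc1a (2.03), a coactivator of mitochondrial genes, and Esrra (1.40), which encodes the receptor ERR alpha.

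Glycolysis genes shared the regional direction in part. Of 14 tested, 10 were lower in the distal part, against 28.8% of all genes, and 1 higher, against 23.7% (median -0.94). Pgam1, phosphoglycerate mutase, was at -2.01 and Eno1, enolase, at -1.44. Hk2, a hexokinase gene, went from 5.73 ppm in proximal to 31.7 ppm in distal cells (2.28) and reached the minimum of 10 ppm only through the latter. In enterocyte-like against progenitor-like cells 9 of 13 were higher, against 26.6%, and 2 lower, against 53.1% (median 1.12), with the phosphofructokinase gene Pfkp at 2.96, Gapdh at 2.10 and Hk2 at -2.25.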
